A study of Mus musculus with 42 samples.

Results

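The comparison set the visceral endoderm of the mouse embryo at embryonic day 6.5 (E6.5) against the inner cell mass of the E3.5 blastocyst. Both came from wild-type female embryos of the cross C57BL/6N X PWK/PhJ, with the maternal genome from one strain and the paternal genome from the other, so that transcripts could be assigned to a parental allele. The authors pooled 3 visceral endoderm (VE) samples and 2 inner cell mass (ICM) samples into 1 maternal and 1 paternal column each, in FPKM, a read density scaled to transcript length and sequencing depth. The replicate spread cannot be seen in such columns, so the values below carry no standard deviation and no test. Genes entered when their total over both alleles reached 5 FPKM in at least 1 of the 2 columns and was above 0 in both, which held for 6643 of 24083 genes. The 2 columns differ in cell type and in developmental time at once, and these cannot be told apart.

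As background, the inner cell mass holds the precursors of the epiblast and of the primitive endoderm, mixed as neighbouring cells. Primitive endoderm forms the visceral endoderm, an absorptive epithelium that surrounds the epiblast and the extraembryonic ectoderm, and the parietal endoderm, which lays down a thick basement membrane. Visceral endoderm takes up maternal nutrients by endocytosis, secretes serum-type carrier proteins before there is a liver, and on its anterior side secretes inhibitors of Nodal and WNT signalling that help to place the body axis. In mouse, the paternal X chromosome is silenced in female preimplantation embryos and stays silent in the extraembryonic lineages, while the inner cell mass is the place where epiblast precursors later reactivate it.

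Differences are given as log2((VE + 1)/(ICM + 1)) of the total FPKM, and a gene is called higher or lower at 2-fold or more on that scale. VE was higher for 1004 of the 6643 genes (15.1%) and lower for 2047 (30.8%), and 3592 were within 2-fold. The counts for gene lists below are to be read beside these shares. The median over all 6643 was -0.48, so a typical gene was listed 1.39-fold lower in VE than in ICM. After subtracting that median, 1467 genes (22.1%) were higher and 1201 (18.1%) lower, so the share of calls that were higher was 32.9% as deposited and 55.0% after centring. Of the 6643 genes, 944 reached 5 FPKM only in VE and 1186 only in ICM, and such genes lie toward a difference by the way they were chosen. Among the 4513 genes at 5 FPKM or more in both columns, 279 were higher and 1165 lower in VE. At the edge of entry, Plagl2 (5.01 FPKM in VE, 0.989 FPKM in ICM) was just inside and Pdcd7 (4.99 FPKM in VE, 4.57 FPKM in ICM) just outside. At the edge of the call, Nmral1 (18.2 FPKM in VE, 8.60 FPKM in ICM) was just called higher and Rpa3 (139.8 FPKM in VE, 69.5 FPKM in ICM) was not.

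The summed FPKM was 334639 in VE and 394370 in ICM, and the number of genes at 1 FPKM or more was 8795 in VE and 8529 in ICM. One ribosomal RNA entry, Rn45s, was listed at 27882 FPKM in VE, all on the maternal allele, and at 0 in ICM, and it made 8.33% of the VE sum. Lars2, a mitochondrial leucyl-tRNA synthetase, stood at 4610 FPKM in VE and 45.8 FPKM in ICM, and both entries were also high in the E6.5 extraembryonic ectoderm column, at 11648 FPKM for Rn45s and 482.8 FPKM for Lars2. With both columns scaled to the same sum without Rn45s, a setting chosen after seeing the data, the median log2 ratio of the 6643 genes was -0.14. A value of 0 is not read as silence, since 8 of 52 ribosomal protein genes were listed at 0 in VE and 9 of 52 in ICM.

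Markers checked the 2 labels. Markers of the neighbouring E6.5 tissues were not uniformly low in VE. Of 19 epiblast markers, 7 were under 1 FPKM in VE and 10 in ICM, with summed levels of 490.2 FPKM in VE and 798.7 FPKM in ICM. Pou5f1 was at 0.334 FPKM, Tdgf1 at 0.156 FPKM and Pou3f1 at 0.0761 FPKM in VE, against 79.4, 104.4 and 16.6 FPKM in the E6.5 epiblast column. The epiblast column comes from 1 sample. Others of the list, Otx2, Fgf5 and Fgf8, were at 73.1 FPKM or more in VE and are described further on. Of 17 extraembryonic ectoderm markers, 11 were under 1 FPKM in VE and 5 in ICM, with summed levels of 84.8 FPKM in VE and 376.5 FPKM in ICM. Elf5 was at 0.26 FPKM in VE, against 124.4 FPKM in extraembryonic ectoderm, whereas Eomes was at 59.2 FPKM in VE, against 61.0 FPKM in extraembryonic ectoderm. The part of either tissue in the results was not tested. Of 14 blood and endothelium markers, 12 were under 1 FPKM in VE and 11 in ICM. Of 13 decidua markers, 10 were under 1 FPKM in VE and 12 in ICM, with summed levels of 51.4 FPKM in VE and 2.3 FPKM in ICM, where Igfbp4 (31.9 FPKM in VE, 0 in ICM) and Bmp2 (16.02 FPKM in VE, 0.0657 FPKM in ICM) made most of the VE sum. The ICM column held transcripts that were higher in trophectoderm. Gata3 stood at 71.8 FPKM in ICM and 291.5 FPKM in the trophectoderm column, and Cldn4 at 145.8 FPKM in ICM and 523.7 FPKM in trophectoderm. Both were present in the morula column too, at 53.2 FPKM for Gata3 and 202.8 FPKM for Cldn4. The 19 trophectoderm markers, which do not include Cldn4, summed to 747.2 FPKM in VE and 1698 FPKM in ICM. Their part in the genes that were lower in VE was not tested.

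The apolipoproteins and carrier proteins that visceral endoderm shares with liver were much higher in VE. Of 26 genes listed for this role, 10 entered the comparison, 9 of them higher and 1 lower in VE, with a median log2 ratio of 4.99 beside -0.48 for all genes. Apoa1, the main protein of high-density lipoprotein, had 771.1 FPKM from the maternal and 552.7 FPKM from the paternal allele in VE, against 4.11 and 3.79 FPKM in ICM, a log2 ratio of 7.22. Apoc2, the cofactor of lipoprotein lipase, had 589.2 FPKM in VE and 2.90 FPKM in ICM (7.24). Apom stood at 540.0 FPKM in VE and 2.65 FPKM in ICM (7.21). Apob, the structural protein of the lipoproteins that visceral endoderm exports, had 55.6 FPKM in VE and 0.0125 FPKM in ICM (5.81). Apoe had 1578 FPKM in VE and was already abundant in ICM, at 242.4 FPKM (2.70). Apoc1 went the other way, with 99.8 FPKM in VE and 223.9 FPKM in ICM (-1.16). A further 7 genes of the group reached 5 FPKM in VE and were listed at 0 in ICM, among them the thyroxine carrier Ttr at 693.2 FPKM, the fetal albumin relative Afp at 466.9 FPKM, the retinol carrier Rbp4 at 291.6 FPKM, and Mttp, which loads lipid onto Apob, at 47.5 FPKM. Albumin itself was at 0.0674 FPKM in VE. In these pooled tissue columns, fewer cells of a type and less RNA per cell cannot be told apart.

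The promoters of 3 of these genes and of 1 gene from the opposite end are shown because they hold matches to the short motifs searched. They are not typical: of 19 promoters searched, those of 14 carrier, uptake and pluripotency genes with a log2 ratio of at least 4 in size, 8 had no match, among them the promoters of Apob, Apom, Cubn and Amn. Each line gives the 250 bases before the transcription start from the RefSeq promoter table (build GRCm38.p6), 5′ to 3′ in the direction of transcription, with matches to any of 8 motifs in capitals. Apoc2 lies at chr7:19677942-19678191 on the minus strand, Apoa1 at chr9:46228380-46228629 and Apoa4 at chr9:46240594-46240843 on the plus strand, and the Nanog promoter at chr6:122707315-122707564 on the plus strand.
Apoc2: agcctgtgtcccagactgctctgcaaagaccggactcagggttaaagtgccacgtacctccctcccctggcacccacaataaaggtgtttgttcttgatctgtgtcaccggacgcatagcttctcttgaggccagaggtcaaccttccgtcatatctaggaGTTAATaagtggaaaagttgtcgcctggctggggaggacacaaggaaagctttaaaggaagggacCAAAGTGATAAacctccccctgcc
Apoa1: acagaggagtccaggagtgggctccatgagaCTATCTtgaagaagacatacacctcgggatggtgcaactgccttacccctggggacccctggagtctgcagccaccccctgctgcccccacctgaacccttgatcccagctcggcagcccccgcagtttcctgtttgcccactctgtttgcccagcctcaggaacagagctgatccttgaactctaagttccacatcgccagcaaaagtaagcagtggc
Apoa4: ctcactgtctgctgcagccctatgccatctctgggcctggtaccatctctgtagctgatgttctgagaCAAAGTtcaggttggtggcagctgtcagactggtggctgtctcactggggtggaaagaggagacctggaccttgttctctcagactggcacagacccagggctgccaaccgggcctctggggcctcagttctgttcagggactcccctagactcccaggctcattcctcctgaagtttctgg
Nanog: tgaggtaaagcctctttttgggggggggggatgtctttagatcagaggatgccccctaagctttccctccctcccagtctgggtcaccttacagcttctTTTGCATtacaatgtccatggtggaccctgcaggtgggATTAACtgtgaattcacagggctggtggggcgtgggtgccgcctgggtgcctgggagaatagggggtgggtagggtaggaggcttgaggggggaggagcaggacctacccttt
In Apoc2 the capitals mark a part of the HNF1 motif (GTTAAT), a short HNF4 match (CAAAGT) that begins 24 bases before the start, and a GATA match (TGATAA) that overlaps it. The Apoa1 stretch has 1 GATA match on the reverse strand, and Apoa4 has 1 short HNF4 match. Nanog holds TTTGCAT, the reverse complement of ATGCAAA, a 7-base part of the octamer bound by OCT4, and ATTAAC, the reverse complement of GTTAAT, so the HNF1 letters also occur in a gene that was lower in VE. Among promoters not shown, GATA matches occurred in Pou5f1, Tdgf1 and Spp1, and GTTAAT with CAAAGT in Dnmt3l, all lower in VE. Any match was found in 3 of 7 carrier and uptake promoters and in 8 of 12 pluripotency promoters. These letters therefore do not set the carrier genes apart.

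Over all matched promoters, the shares with a match lay close together in higher and lower genes when 250 bases were searched. Promoters were found for 5413 of the 6643 genes (81.5%), 1065 promoters for 796 genes higher in VE and 2060 for 1648 genes lower in VE. Both strands were searched. A GATA match was any of 4 runs, of which AGATAA was one, AGATAG another, TGATAA the next and TGATAG the last. Such a match was present in 15.6% of promoters of higher genes (95% exact binomial interval 13.5 to 17.9%), 16.8% of lower genes and 26.5% of all 32851 promoters in the table. CAAAGT was in 12.1% of promoters of higher genes (10.2 to 14.2%) and 10.4% of lower genes (9.15 to 11.8%), against 12.6% of all promoters. GTTAAT was in 4.6% and 3.69% of promoters of higher and lower genes, against 6.43% of all. ATGCAAA was in 2.72% and 2.43%, against 4.12% of all. Promoters of genes within 2-fold held a GATA match in 16.6%, CAAAGT in 9.46%, GTTAAT in 3.73% and ATGCAAA in 3.16%. Shares below those of all promoters were therefore not particular to called genes. The other 4 motifs were those of FOXA (TGTTTAC and, counted with it, TATTTAC), in 3.38% of promoters of higher genes and 4.13% of lower genes, against 5.76% of all, and of SOX (CATTGTT), in 1.88% and 1.84%, against 3.29% of all. The KLF letters (GGGTGTG) were in 7.23% and 7.33%, against 6.93% of all, and those of ESRRB (TCAAGGTCA) in 0.282% and 0.291%, against 0.387% of all. The promoters of higher and lower genes were richer in G and C, with medians of 62.0% and 59.2%, than all promoters (52.4%). Those of genes within 2-fold had a median of 60.4%. Within 100 bases of the start, CAAAGT was found in 4.6% of promoters of higher genes (3.42 to 6.04%) and 2.33% of lower genes (1.72 to 3.08%). It was in 2.89% of promoters of genes within 2-fold and 4.46% of all promoters. The intervals cover counting error only and treat each promoter as independent. Some genes have several promoters, which can overlap and share a match, so the intervals can be too narrow. A match is a run of letters, not a bound site.

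**Figure D1:**
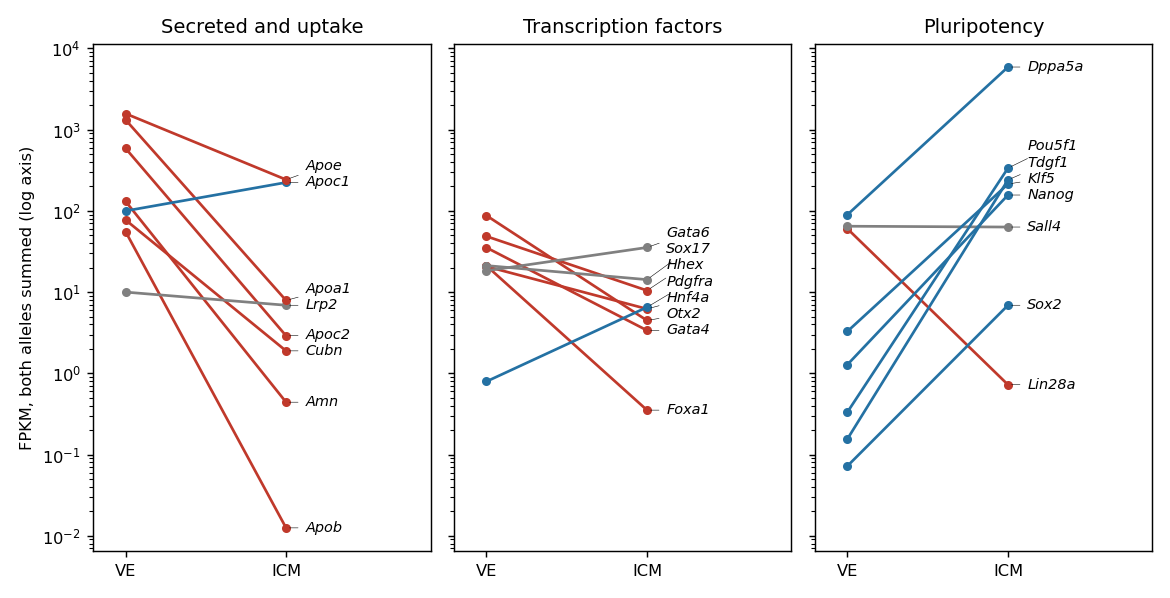
Total FPKM (log axis) of 24 genes in E6.5 visceral endoderm (VE, left of each panel) and E3.5 inner cell mass (ICM, right), 1 pooled value per column. Red lines are genes at least 2-fold higher in VE, blue lines at least 2-fold lower and grey lines within 2-fold on the log2(FPKM + 1) scale. Apob spans 55.6 FPKM in VE and 0.0125 FPKM in ICM, Gata6 and Sox17 stay within 2-fold as deposited (Sox17 passes it after centring), and Lin28a runs against the other pluripotency genes.

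The uptake machinery of the absorptive epithelium was split. Cubn, the cubilin receptor for vitamin B12-intrinsic factor and apolipoproteins, had 77.4 FPKM in VE and 1.89 FPKM in ICM (log2 ratio 4.76), and its membrane partner Amn had 131.4 FPKM in VE and 0.441 FPKM in ICM (6.52). The clathrin adaptor Dab2 stood at 282.6 FPKM in VE and 68.4 FPKM in ICM (2.03). The motor Myo6 (26.3 FPKM in VE, 1.11 FPKM in ICM) and the lysosomal protease Lgmn (280.9 FPKM in VE, 33.0 FPKM in ICM) were higher as well. The megalin gene Lrp2, whose product works with cubilin, was similar, at 9.996 FPKM in VE and 6.88 FPKM in ICM (0.48). Of 12 uptake genes that entered, 5 were higher, 1 was lower and 6 were within 2-fold, with a median of 0.66. Among those at 5 FPKM or more in both columns the median was -0.08.

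Of 27 lysosomal genes that entered, 14 were lower in VE, 5 were higher and 8 were within 2-fold, with a median of -1.19. Over all genes 30.8% were lower and 15.1% higher, and the share of higher lysosomal genes was near the latter. After centring, 11 were lower and 7 higher, with a median of -0.71. Psap, the precursor of the saposins, had 2.61 FPKM in VE and 298.8 FPKM in ICM (-6.37). The hexosaminidase subunit Hexa was lower (18.4 FPKM in VE, 177.8 FPKM in ICM), and Gm2a, the lipid transfer protein that serves hexosaminidase, had 1.39 FPKM in VE and 369.1 FPKM in ICM. Cathepsin H (Ctsh) instead had 188.2 FPKM in VE and 0.860 FPKM in ICM (6.67), and Ctsz had 245.1 FPKM in VE and 31.3 FPKM in ICM (2.93). The lysosomal lipase Lipa (17.4 FPKM in VE, 0.306 FPKM in ICM) and the cholesterol exporter Npc1 (14.9 FPKM in VE, 3.07 FPKM in ICM) were also higher. Of 14 subunits and partners of the vacuolar proton pump, 11 were within 2-fold, 1 was higher and 2 were lower.

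Transcription factors and early markers of the endoderm were mostly higher in VE. Of 17 genes that entered, 11 were higher, 2 lower and 4 within 2-fold, with a median of 2.12, and after centring 12 were higher and 2 lower. Gata6, which starts the primitive endoderm programme, had 18.3 FPKM in VE and 35.4 FPKM in ICM (-0.92). Sox17 had 21.2 FPKM in VE and 14.2 FPKM in ICM (0.54), which passed 2-fold after centring. Pdgfra, a receptor carried by primitive endoderm precursors, had 0.793 FPKM in VE and 6.51 FPKM in ICM (-2.07). Later regulators stood above ICM: Gata4 at 35.3 FPKM in VE and 3.37 FPKM in ICM (3.05), and Foxa1 at 21.1 FPKM in VE and 0.352 FPKM in ICM (4.03). Hnf4a, a regulator of apolipoprotein genes, had 20.7 FPKM in VE and 6.20 FPKM in ICM (1.59). Foxa2 (58.7 FPKM), Lhx1 (62.6 FPKM) and Mixl1 (107.4 FPKM) reached those levels in VE and were listed at 0 in ICM.

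Genes of the anterior visceral endoderm, whose products act on the neighbouring epiblast, were called higher in 8 of 9 cases, with a median of 2.16. Lefty1, a secreted Nodal inhibitor, had 102.4 FPKM in VE and 0.00811 FPKM in ICM (6.68). Cer1, a secreted protein that binds Nodal, had 147.2 FPKM in VE and was listed at 0 in ICM. Dkk1, which blocks the WNT co-receptor, was detected in both, at 61.7 FPKM in VE and 13.03 FPKM in ICM (2.16). Hhex had 48.6 FPKM in VE and 10.4 FPKM in ICM (2.12), Otx2 had 87.5 FPKM in VE and 4.47 FPKM in ICM (4.02), and Gsc had 43.0 FPKM in VE and 12.1 FPKM in ICM (1.74). Hesx1 was the exception, at 13.02 FPKM in VE and 13.4 FPKM in ICM (-0.04).

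Signalling genes differed in direction from component to component. Among ligands, Nodal had 39.4 FPKM in VE and 0.0874 FPKM in ICM (5.21), while its co-receptor Tdgf1 had 0.156 FPKM in VE and 240.9 FPKM in ICM (-7.71) and Gdf3, a related ligand, had 6.12 FPKM in VE and 66.7 FPKM in ICM (-3.25). Bmp2 had 16.02 FPKM in VE and 0.0657 FPKM in ICM (4.0), and Bmp4 was the reverse, at 0.672 FPKM in VE and 36.3 FPKM in ICM (-4.48). The BMP-responsive gene Id1 had 75.1 FPKM in VE and 3.42 FPKM in ICM (4.11), but Id2 (36.1 FPKM in VE, 124.5 FPKM in ICM) and Id3 (62.8 FPKM in VE, 210.7 FPKM in ICM) were lower. Over the Nodal genes, 4 of 9 were higher and 3 lower, and over the BMP, WNT and Hedgehog genes 12 of 18 were higher and 6 lower, with medians of 0.25 and 1.44. Fgf4, the ligand through which epiblast precursors direct primitive endoderm, was listed at 0 in VE and at 25.0 FPKM in ICM, and the receptors Fgfr1 (1.16 FPKM in VE, 17.4 FPKM in ICM) and Fgfr2 (2.40 FPKM in VE, 8.04 FPKM in ICM) were both lower. In the FGF and ERK group, 4 of 13 were higher and 4 lower. Over all genes 15.1% were higher and 30.8% lower.

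Some genes usually followed as epiblast or primitive streak markers were present in the VE column. Fgf5 was at 91.9 FPKM and Fgf8 at 73.1 FPKM in VE, both listed at 0 in ICM, against 60.8 and 9.28 FPKM in the E6.5 epiblast column. Of the 10 epiblast markers that entered, 4 were higher and 5 lower. Their median of -1.05 gives no direction for the list, since it was 0.82 with a minimum of 1 FPKM, 1.91 with a minimum of 10 FPKM and 0.83 with genes listed at 0 kept.

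Pluripotency genes made the clearest group on the lower side. Of 25 that entered, 21 were lower and 2 higher in VE, with a median of -3.68. Pou5f1, which encodes OCT4, had 0.334 FPKM in VE and 336.4 FPKM in ICM (-7.98). Nanog had 1.28 FPKM in VE and 156.7 FPKM in ICM (-6.11), and Klf5 had 3.28 FPKM in VE and 214.0 FPKM in ICM (-5.65). Spp1, which encodes osteopontin, had 0.0225 FPKM in VE and 569.0 FPKM in ICM (-9.12). Dppa5a had 89.9 FPKM in VE and 5906 FPKM in ICM (-6.02), the highest level of any gene in the ICM column. Lin28a, an RNA-binding protein that blocks let-7 maturation, ran the other way with 60.2 FPKM in VE and 0.723 FPKM in ICM (5.15). Sall4 was alike in both, at 64.7 FPKM in VE and 63.2 FPKM in ICM (0.03).

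Most trophectoderm and extraembryonic ectoderm markers that entered were lower in VE as well. Of 15 trophectoderm genes, 10 were lower, 1 higher and 4 within 2-fold, with a median of -2.74. With 5 FPKM required in both columns, that median was -0.47. Of 10 extraembryonic ectoderm genes, 8 were lower and 1 higher, with a median of -2.8. This median became 2.69 with 5 FPKM required in both columns. In both lists the 1 higher gene was Eomes, at 59.2 FPKM in VE and 8.31 FPKM in ICM. The epithelial keratins Krt8 (287.0 FPKM in VE, 519.7 FPKM in ICM) and Krt18 (316.0 FPKM in VE, 572.3 FPKM in ICM) were within 2-fold. The maternal-effect gene Khdc3 was listed at 0 in VE and had 1121 FPKM in ICM, 49.6% of it from the paternal allele. Dppa3 had 6.21 FPKM in VE and 991.9 FPKM in ICM, with 32.4% paternal in ICM. Of 21 oocyte genes 3 entered, 2 lower and 1 higher.

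**Figure D2:**
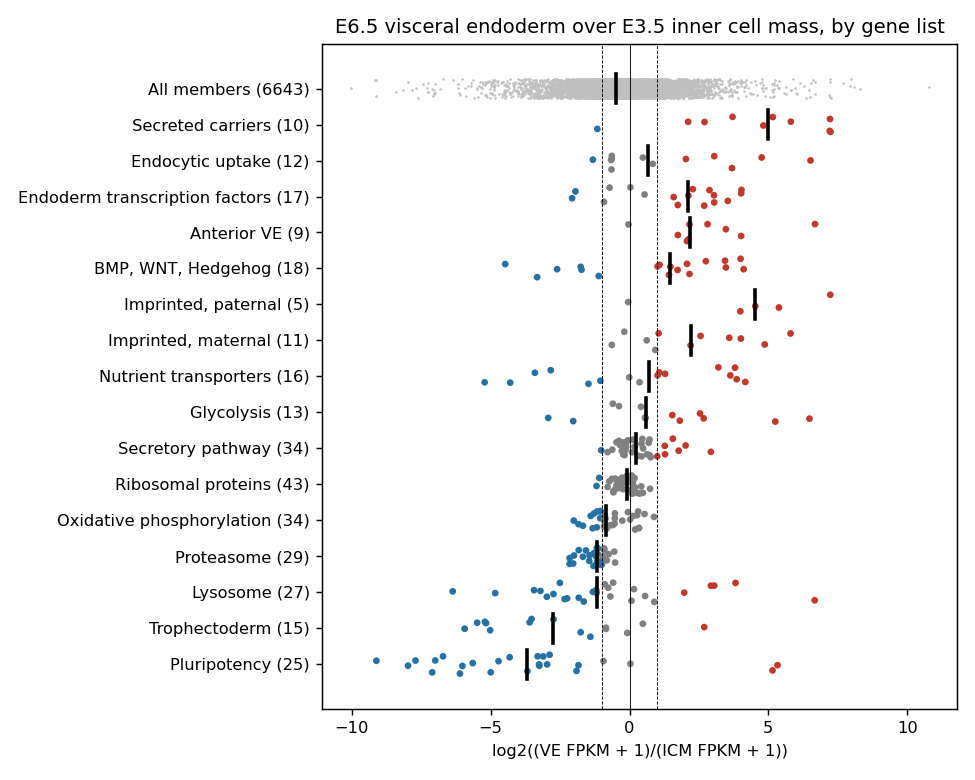
Log2 ratio of VE over ICM total FPKM for each gene that entered, by list, with the number of genes in parentheses and the median as a black bar. Red points are at least 2-fold higher in VE, blue at least 2-fold lower, grey within 2-fold; dashed lines mark 2-fold. The secreted carriers sit around 4.99 and the pluripotency genes around -3.68, while 41 of 43 ribosomal protein genes stay within 2-fold.

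The genes with the largest ratios mixed visceral endoderm products with genes of broader use. Spink3, a secreted trypsin inhibitor, had 9863 FPKM in VE and 4.64 FPKM in ICM (10.77), and made 2.95% of the VE sum. It is the highest protein-coding gene of the VE column. Cyp26a1, which degrades retinoic acid, had 419.5 FPKM in VE and 0.349 FPKM in ICM (8.28). The carbonic anhydrases Car2 (288.3 FPKM in VE, 0.0655 FPKM in ICM) and Car4 (1542 FPKM in VE, 17.8 FPKM in ICM) followed. Emb, which helps to bring lactate transporters to the membrane, had 852.6 FPKM in VE and 2.46 FPKM in ICM (7.95). Gpc3, a glypican, had 354.6 FPKM in VE and 1.43 FPKM in ICM (7.19), and Podxl, a sialomucin of apical membranes, had 82.5 FPKM in VE and 0.0692 FPKM in ICM (6.29).

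At the other end, Calcoco2, a receptor for selective autophagy, had 0.252 FPKM in VE and 1304 FPKM in ICM (-10.03). Fbp2, a fructose-bisphosphatase of gluconeogenesis, had 0.0978 FPKM in VE and 624.8 FPKM in ICM (-9.15). Bhmt, which remethylates homocysteine from betaine, had 0.0807 FPKM in VE and 599.8 FPKM in ICM (-9.12). Prps1, which makes the ribose donor for nucleotide synthesis, had 1.116 FPKM in VE and 729.1 FPKM in ICM (-8.43). The creatine kinase Ckb (9.65 FPKM in VE, 1638 FPKM in ICM) and the fatty acid binding protein Fabp3 (4.21 FPKM in VE, 907.8 FPKM in ICM) were also among the 20 lowest ratios. Calcoco2, Fbp2 and Bhmt were listed at 0 in the E6.5 epiblast column too, whereas Prps1 had 162.0 FPKM there.

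Of 13 glycolytic genes, 6 were higher and 2 lower, beside 15.1% and 30.8% over all genes, with a median of 0.58. Ldha, which turns pyruvate into lactate, had 962.4 FPKM in VE and 9.80 FPKM in ICM (6.48), and Ldhb had 55.4 FPKM in VE and 0.485 FPKM in ICM (5.25). Pgk1 (221.5 FPKM in VE, 37.2 FPKM in ICM) and Eno1 (423.4 FPKM in VE, 65.5 FPKM in ICM) were higher, while Pfkp (0.628 FPKM in VE, 11.4 FPKM in ICM) and Pdha1 (34.0 FPKM in VE, 141.8 FPKM in ICM), which feeds pyruvate into mitochondria, were lower. The glucose transporter Slc2a3 had 396.5 FPKM in VE and 42.1 FPKM in ICM (3.20), and the lactate transporter Slc16a1 had 371.7 FPKM in VE and 25.8 FPKM in ICM (3.80). The amino acid transporters higher in VE included Slc7a9 (21.0 FPKM in VE, 0.218 FPKM in ICM), Slc7a8 (22.1 FPKM in VE, 0.590 FPKM in ICM) and Slc7a7 (49.98 FPKM in VE, 3.13 FPKM in ICM). Slc1a1 (0.0316 FPKM in VE, 37.5 FPKM in ICM) and Slc2a8 (1.69 FPKM in VE, 51.8 FPKM in ICM) were lower. In all, 8 of 16 transporters were higher, beside 15.1% of all genes, and 6 were lower, a share near the 30.8% of all genes.

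None of 34 oxidative phosphorylation genes was higher, beside 15.1% of all genes, and 11 were lower, a share near the 30.8% of all genes. Their median was -0.85, or -0.37 after centring. Uqcrc1 had 63.9 FPKM in VE and 259.4 FPKM in ICM (-2.01), Atp5a1 had 209.3 FPKM in VE and 751.8 FPKM in ICM (-1.84). None of 29 proteasome genes was higher and 21 were lower, with a median of -1.18, or -0.71 after centring. Psmd11 had 60.0 FPKM in VE and 272.4 FPKM in ICM (-2.16), and Psmd10 was the closest to ICM among the regulatory subunits, at 18.4 FPKM in VE and 27.4 FPKM in ICM (-0.55). After centring, 7 of the 29 proteasome genes were lower and none higher, and of the 34 oxidative phosphorylation genes 3 were lower and 2 higher. Ribosomal protein genes, with 2 of 43 lower and a median of -0.08, sat 0.39 above the median of all genes on the log2 scale. Centring also turned the sign of the medians for the proton pump (0.16), cell cycle (0.05), DNA methylation (0.13), Polycomb (0.43) and antioxidant genes (0.24), all below 0 as deposited.

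The secretory pathway stood mostly within 2-fold (26 of 34 genes), 7 higher and 1 lower, and a median of 0.24. The endoplasmic reticulum chaperone Hsp90b1 had 419.4 FPKM in VE and 102.9 FPKM in ICM (2.02), and the coat protein Sec24d had 6.98 FPKM in VE and 0.0459 FPKM in ICM (2.93). Genes of sterol and lipid synthesis were lower in 11 of 25 cases and higher in 3, beside 30.8% and 15.1% over all genes. After centring 7 were lower and 5 higher, with a median of -0.24. Insig1 had 1.74 FPKM in VE and 43.3 FPKM in ICM (-4.01), and Elovl6 had 1.03 FPKM in VE and 36.2 FPKM in ICM (-4.20). For iron and heme, the storage subunit Fth1 had 2722 FPKM in VE and 638.1 FPKM in ICM (2.09), and its partner Ftl1 had 1025 FPKM in VE and 1647 FPKM in ICM (-0.68). The iron exporter Slc40a1 had 41.9 FPKM in VE and was listed at 0 in ICM, and the heme and folate transporter Slc46a1 had 1.66 FPKM in VE and 63.0 FPKM in ICM (-4.59). In that group 4 of 17 were higher and 5 lower, beside 15.1% and 30.8% over all genes. Of 21 antioxidant and detoxification genes, 4 were higher and 6 lower, near the 15.1% and 30.8% over all genes, with Gpx3 at 92.8 FPKM in VE and 12.5 FPKM in ICM (2.79) and Upp1 at 8.25 FPKM in VE and 358.7 FPKM in ICM (-5.28).

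Of 27 epithelial genes 15 were within 2-fold, 8 higher and 4 lower. Claudin 6 (Cldn6) had 383.7 FPKM in VE and 47.7 FPKM in ICM (2.98), whereas Cldn4 had 0.112 FPKM in VE and 145.8 FPKM in ICM (-7.05). The microvillus protein villin (Vil1) had 27.5 FPKM in VE and 0.0418 FPKM in ICM (4.77), and Krt19 had 68.9 FPKM in VE and 1.48 FPKM in ICM (4.81). E-cadherin (Cdh1) was lower, at 30.9 FPKM in VE and 76.3 FPKM in ICM (-1.28). After centring 13 of the 27 were higher and 3 lower. The basement membrane chains Col4a1 (41.1 FPKM in VE, 10.7 FPKM in ICM) and Col4a2 (22.0 FPKM in VE, 5.62 FPKM in ICM) were higher, as were Nid2 (42.8 FPKM in VE, 2.68 FPKM in ICM) and Agrn (18.4 FPKM in VE, 1.17 FPKM in ICM). Among 19 such genes 5 were higher and 2 lower, and among 7 parietal endoderm genes 3 were higher and 1 lower, with Sparc close to level at 103.0 FPKM in VE and 87.2 FPKM in ICM (0.24).

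Cell cycle genes were lower in 9 of 27 cases and higher in 4, near the 30.8% and 15.1% over all genes, the lower ones including the replication helicase subunits Mcm2, Mcm4, Mcm5 and Mcm6 and the cyclin Ccnd3 (30.4 FPKM in VE, 239.9 FPKM in ICM). Of 12 early response and stress genes 9 were lower and none higher, beside 30.8% and 15.1% over all genes. After centring 8 of them were lower and 1 higher. Hspa8 had 874.6 FPKM in VE and 2524 FPKM in ICM (-1.53). Among 11 genes of DNA methylation, 3 were higher and 4 lower, and of 20 Polycomb genes 6 were higher and 5 lower. Both sets of counts stand beside 15.1% higher and 30.8% lower over all genes. Dnmt3b was higher (80.9 FPKM in VE, 20.7 FPKM in ICM) and its regulator Dnmt3l lower (0.649 FPKM in VE, 51.8 FPKM in ICM). Tet1 (3.31 FPKM in VE, 15.2 FPKM in ICM) and Tet2 (0.901 FPKM in VE, 23.3 FPKM in ICM) were lower too. The Polycomb gene Eed had 28.6 FPKM in VE and 90.5 FPKM in ICM (-1.63), while the methyltransferase Ezh2 was within 2-fold (45.5 FPKM in VE, 56.3 FPKM in ICM). Of 3 coagulation and protease inhibitor genes 2 were higher and 1, Pros1 (2.42 FPKM in VE, 45.9 FPKM in ICM), was lower.

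The other columns of the same table give the stage and tissue of the highest level, which the choice of higher and lower genes partly fixes. VE was the highest of 8 columns for 516 of the 1004 higher genes (51.4%), the E9.5 yolk sac for 202 (20.1%) and the E6.5 epiblast for 132 (13.1%). The yolk sac and epiblast columns each come from 1 sample, and the yolk sac column has only 4163 genes at 1 FPKM or more. Of the 2047 lower genes, ICM was the highest column for 703 (34.3%), the morula for 483 (23.6%) and the E3.5 trophectoderm for 398 (19.4%). Of the genes within 2-fold, VE was the highest column for 6.26% and ICM for 9.47%, and nothing is read from these shares. Apoa1 was listed before E6.5 as well, with 48.0 FPKM in 8-cell embryos, 37.1 FPKM in morulae, 7.90 FPKM in ICM, 73.5 FPKM in trophectoderm, 1.67 FPKM in epiblast, 1324 FPKM in VE and 108.8 FPKM in extraembryonic ectoderm. Hnf4a was at most 0.420 FPKM in 8-cell embryos, morulae and trophectoderm, and 6.20 FPKM in ICM. Ldha was high in every E6.5 tissue, with 2451 FPKM in epiblast, 962.4 FPKM in VE and 1972 FPKM in extraembryonic ectoderm, and under 10 FPKM in all 4 earlier columns. Slc2a3 instead had 21.1 FPKM in epiblast and 104.1 FPKM in extraembryonic ectoderm, under its 396.5 FPKM in VE.

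**Figure D3:**
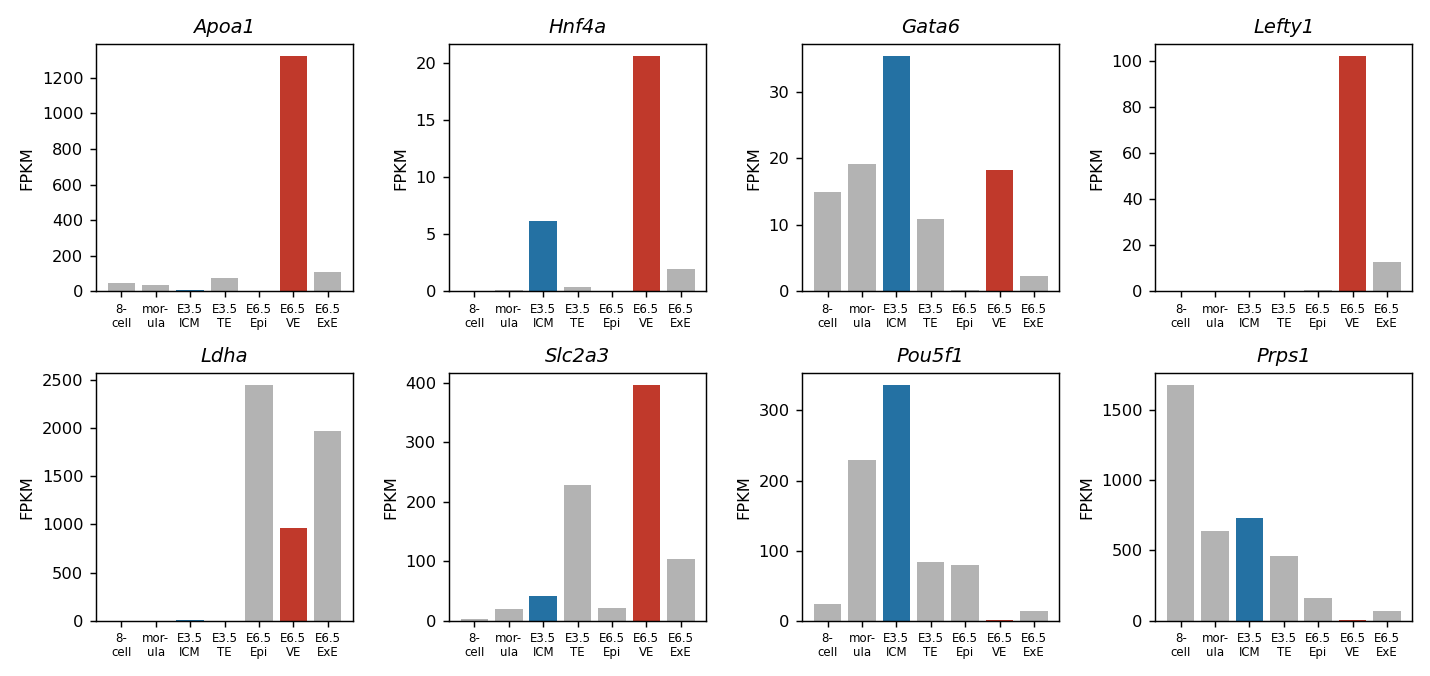
Total FPKM of 8 genes in the 7 columns from the 8-cell stage to E6.5, in developmental order, 1 pooled value per bar (VE red, ICM blue, others grey; each panel has its own linear axis from 0). Apoa1, Hnf4a and Lefty1 peak in VE, Ldha is high in all 3 E6.5 tissues, Gata6 and Pou5f1 peak in ICM, and Prps1 is highest at the 8-cell stage.

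The 2 alleles were also compared one at a time, from the same libraries. The total is the sum of the alleles, so their agreement with a call on the total is partly fixed. Of the 1004 genes higher on the total, 704 (70.1%) were at least 2-fold higher on each allele alone, and of the 2047 lower genes 1468 (71.7%) were at least 2-fold lower on each. An allele went the opposite way for 16 higher and 25 lower genes. The X-linked gene Morf4l2 was one: its maternal allele had 436.9 FPKM in VE and 164.7 FPKM in ICM, and its paternal allele 2.98 FPKM in VE and 10.3 FPKM in ICM. Another, Kansl2 on an autosome, was lower on the total (13.4 FPKM in VE, 34.8 FPKM in ICM) with 83.3% of its VE signal on the paternal allele and all of its ICM signal on the maternal one. For autosomal genes at 5 FPKM or more in both columns, the median paternal share was 49.5% in VE and 48.0% in ICM for the 261 higher genes, and 48.9% in VE and 49.7% in ICM for the 1130 lower genes.

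Imprinted genes, which are expressed mainly from 1 parental allele in some or all tissues, were mostly higher in VE. Of 5 paternally expressed genes that entered 4 were higher, and of 11 maternally expressed genes 7 were higher and none lower, with medians of 4.53 and 2.2. Most were under 5 FPKM in ICM, and with 5 FPKM required in both columns 1 paternally and 4 maternally expressed genes were left, with medians of -0.05 and 0.43. Mest had 386.7 FPKM from the paternal and 0.235 FPKM from the maternal allele in VE, against 1.59 and 0 FPKM in ICM. Igf2, a growth factor, had 33.6 FPKM from the paternal and 0.256 FPKM from the maternal allele in VE, and Peg3 had 55.6 and 1.63 FPKM, while both totals were under 1 FPKM in ICM. On the maternal side, Grb10 had 65.2 FPKM from the maternal and 1.98 FPKM from the paternal allele in VE, and a total of 0.225 FPKM in ICM. The noncoding RNA H19 had 486.3 FPKM from the maternal and 42.9 FPKM from the paternal allele in VE and was listed at 0 in ICM. The noncoding neighbours on chromosome 12, Meg3 (33.5 FPKM in VE, 0.183 FPKM in ICM), Rian (14.4 FPKM in VE, 0.280 FPKM in ICM) and Mirg (19.1 FPKM in VE, 0.253 FPKM in ICM), were higher together. Gnas, imprinted in some tissues only, was higher from both alleles, with 64.5 FPKM maternal and 49.4 FPKM paternal in VE, against 14.4 and 9.61 FPKM in ICM. Among genes whose imprint depends on histone marks in place of DNA methylation, Slc38a4 was lower and paternal in both, with 2.67 FPKM in VE and 37.6 FPKM in ICM from the paternal allele, and Sfmbt2 was level and paternal, with 8.91 and 8.17 FPKM. In that list 3 of 6 were higher and 1 lower.

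**Figure D4:**
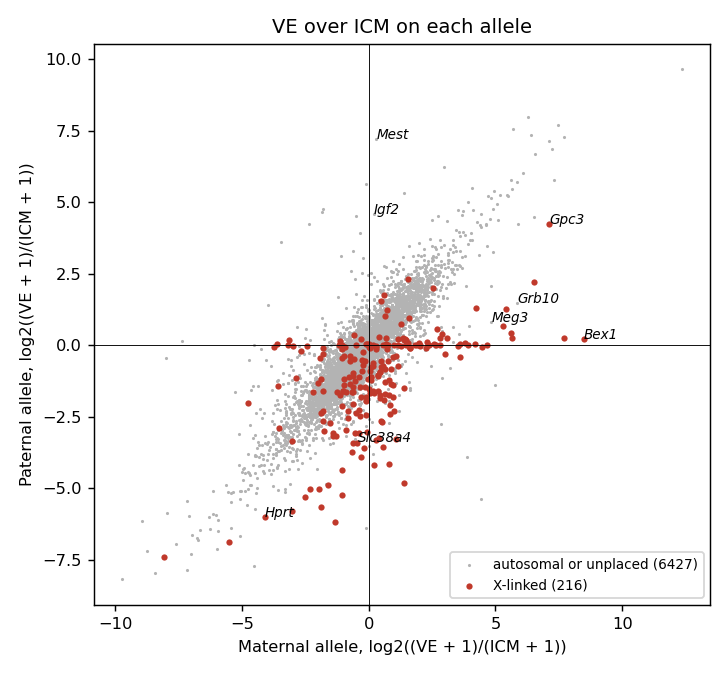
Log2 ratio of VE over ICM on the maternal allele (horizontal) and the paternal allele (vertical) for the 6643 genes, X-linked genes in red. Autosomal genes lie along the diagonal, Mest and Igf2 are displaced upward, Grb10 and Meg3 to the right, and X-linked genes lie at or below 0 on the paternal axis with few exceptions such as Gpc3.

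The X chromosome carried a larger share of higher genes than the autosomes and a different balance of alleles. Of 216 X-linked genes 54 (25.0%) were higher and 58 (26.9%) lower in VE, against 949 of 6412 autosomal genes (14.8%) higher and 1985 (31.0%) lower. The X-linked median was -0.07, made of 0.12 on the maternal and -0.75 on the paternal allele, while the autosomal median was -0.49, with -0.44 maternal and -0.42 paternal. Chromosome 14 had a like share of higher genes, 49 of 196 (25.0%), with no such difference between alleles (-0.16 maternal, -0.18 paternal). On the paternal allele alone, 10 X-linked genes were higher and 100 lower.

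For the 141 X-linked genes at 5 FPKM or more in both columns, the median paternal share was 1.04% in VE and 16.2% in ICM. In 122 of them the share was below that of ICM in VE, in 14 above and in 5 equal. A paternal share under 5% was found for 109 genes in VE (77.3%) and 40 in ICM (28.4%), and a share of at least 20% for 7 genes in VE and 60 in ICM. Xist, the noncoding RNA that coats the inactive X, was 93.5% paternal in VE and 93.6% in ICM, with totals of 27.3 FPKM in VE and 10.96 FPKM in ICM (log2 ratio 1.24). Genes known in mouse to escape silencing had a paternal part in VE, with 35.4% in VE and 46.2% in ICM for Eif2s3x, 16.9% and 40.5% for Kdm5c, and 17.2% and 39.1% for Kdm6a. Rps4x, a ribosomal protein gene, had 20.2% in VE and 42.5% in ICM. Sms, the spermine synthase gene, was lower on both alleles: the maternal allele had 7.97 FPKM in VE and 49.8 FPKM in ICM, and the paternal allele 0.542 FPKM in VE and 59.5 FPKM in ICM. Hprt, a purine salvage enzyme, had 52.3 FPKM from the maternal and 0.0204 FPKM from the paternal allele in VE, against 916.0 and 65.0 FPKM in ICM. Gpc3 stood out among higher genes with 18.1 FPKM from the paternal allele in VE beside 336.5 FPKM from the maternal one.

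**Figure D5:**
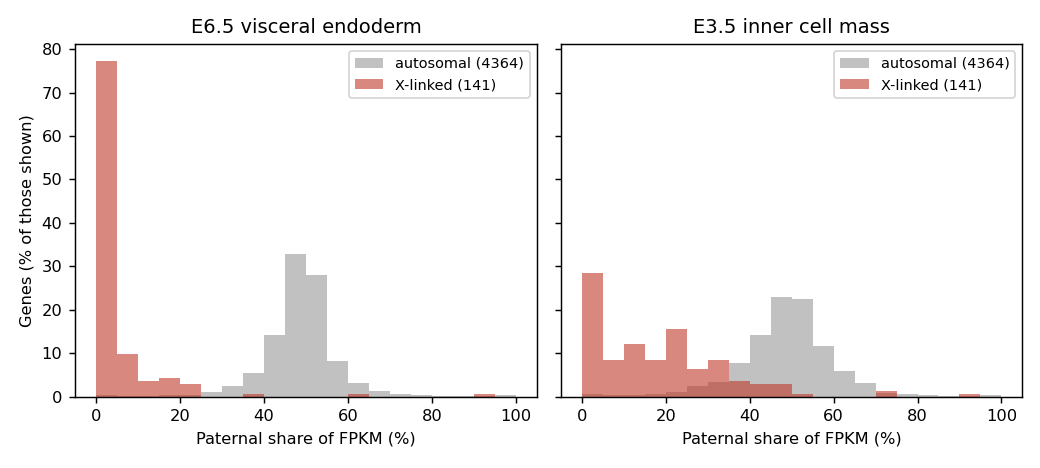
Paternal share of FPKM for genes at 5 FPKM or more in both columns, in VE (left) and ICM (right), as percent of the autosomal (grey, 4364) or X-linked (red, 141) genes shown, in bins of 5 percentage points. Autosomal genes centre near 49% in both; 77.3% of X-linked genes fall under 5% in VE and 28.4% in ICM.

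Some called genes were neighbours among the measured genes in chromosomal order. There were 39 runs of at least 3 consecutive higher genes, holding 130 genes, and 174 runs of lower genes, holding 618. Lower genes were also the more frequent single calls, at 30.8% against 15.1% for higher genes. The longest higher run had 10 X-linked genes from Bhlhb9 to C330013F16Rik, including Bex4 (374.6 FPKM in VE, 0.819 FPKM in ICM), Bex1 (356.1 FPKM in VE, 0.411 FPKM in ICM), Wbp5 (515.3 FPKM in VE, 12.04 FPKM in ICM) and Ngfrap1 (446.8 FPKM in VE, 9.84 FPKM in ICM), and in these 4 the maternal allele gave over 99% of the VE signal. Other higher runs were Apoa1, Apoc3 and Apoa4 on chromosome 9, Meg3, Rian and Mirg on chromosome 12, Akr1c13, Akr1c19 and Akr1c12 on chromosome 13, and Ddt, Gstt3, Gstt1 and Mif on chromosome 10. Mif, a cytokine-like enzyme, had 2151 FPKM in VE and 353.1 FPKM in ICM (2.60). The longest lower run had 9 genes from Ech1 to Yif1b on chromosome 7, and a lower run of 6 on chromosome 9 held Dppa5a and Ooep. Members of the Bex, Akr1c, Gstt and Pramel families are similar in sequence, and reads shared between copies make their single values uncertain.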

How the data were processed

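The authors deposited FPKM, split into the part on the maternal and the part on the paternal allele, from libraries made, per the labels' protocols, with Smart-seq2 from polyadenylated RNA. Trim Galore 0.6.4, HISAT2 2.2.0, StringTie 2.1.1 and mm9 were used, per the submitters' processing notes. How reads were assigned to alleles is not given in the sources used here. Samples (3 VE and 2 ICM) had been merged before deposit, so each allele has a single column per tissue, and 5 summary lines, all at 0, were left out. Read counts were not used here, and depth is unknown: the ratio of the 2 alleles among genes under 0.3 FPKM was whole within 0.2% for 37.9% of genes in VE and 48.8% in ICM, and no common read value was found.

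Totals were the sum of both alleles, with a pseudocount of 1 FPKM, a minimum of 5 FPKM and a call at 2-fold; log2 changes of low genes are understated. With 1 pooled column per group, no test was run. Names, chromosomes and neighbour order came from a GRCm38.p6 table, which matched 6628 of 6643 genes, and motif searches used RefSeq promoters of that build. Genes named are the 20 highest and lowest ratios, the 10 highest levels per column, up to 12 per list (largest and most abundant) and those listed at 0 in 1 column. X-linked escape genes, Hprt, Sms and Gpc3 were chosen after their values were seen. The members and the 36 gene lists were chosen with earlier results of these data known. Calls were checked on simulated data. Python 3.11.15, numpy 2.4.6, pandas 2.3.3 and scipy 1.17.1 were used. The alternatives were other pseudocounts, minima, fold limits and scalings, and each allele alone. Some genes that the naming rule selects are not reported here.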

Additional observations from a re-analysis of the deposited data

How the results depend on the processing

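No paired analysis was possible because the columns pool the replicates, and leaving out a replicate could not be done for the same reason. The number of genes higher in VE (1004) became 647 with a pseudocount of 5 FPKM, 630 with a minimum of 10 FPKM, 451 at 4-fold and 279 with 5 FPKM required in both columns, an alternative chosen after seeing the data, as was scaling without Rn45s, which gave 1320 higher and 1442 lower. The number lower (2047) became 1201 after centring, 690 at 4-fold and 1165 with 5 FPKM in both columns. X-linked counts (54 higher, 58 lower) became 10 and 100 on the paternal allele, where the median was -0.75, and 18 and 34 with 5 FPKM in both columns.

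The secreted carrier median (4.99) was 6.48 with a pseudocount of 0.1 FPKM, 3.15 with 5 FPKM, 3.86 on the paternal allele and 2.7 with 5 FPKM in both columns. The uptake median (0.66) was 1.44 with a minimum of 10 FPKM and -0.08 with 5 FPKM in both. The endoderm factor median was 1.42 with a pseudocount of 5 FPKM, the anterior VE median 3.14 with genes at 0 kept, and the pluripotency median -5.55 and -2.54 with pseudocounts of 0.1 and 5 FPKM and -4.32 with a minimum of 10 FPKM. Medians of at least 1 in size that changed sign were those of the epiblast list (0.82, 1.91 and 0.83 with a minimum of 1 FPKM, of 10 FPKM and with genes at 0 kept), extraembryonic ectoderm (2.69) and paternally expressed genes (-0.05) with 5 FPKM in both columns, and the 2 blood and endothelium genes (0.02, paternal allele). Smaller medians also changed sign: uptake as above, and on rescaling or centring or with another minimum the proton pump, ribosomal, cell cycle, DNA methylation, Polycomb and antioxidant lists, whose medians lay between -0.42 and 0.43 in the settings concerned. Cited1 (-0.02), Dhcr7 (0.22) and Aco1 (0.17) changed sign on the paternal allele. The causes were not tested, beyond the smaller number of genes that stricter minima leave. Of 5847 values of single genes, 5352 stayed within 1.5-fold, but most of these could not move. Another minimum, or keeping genes at 0, leaves the ratio of a gene as it is. Centring and rescaling shifted the ratios by less than 1.5-fold. All values that moved further came from the other pseudocounts or from each allele alone, so the share that stayed does not measure stability.

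In promoters, the windows of 100 bases gave 5.63% (GATA), 1.88% (GTTAAT) and 4.6% (CAAAGT) for higher genes and 0.825% (ATGCAAA) for lower genes, as shorter windows hold fewer matches.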

Other observations

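Among genes within 2-fold, a few differed widely in paternal share between the 2 columns. Mtx1, a mitochondrial import gene, had 20.8 FPKM in VE, all maternal, and 40.3 FPKM in ICM, all paternal. Xbp1, a transcription factor of the secretory pathway, had 36.8 FPKM in VE, 72.2% of it paternal, and 38.2 FPKM in ICM, all maternal. Hmgb1 had 113.0 FPKM in VE, 43.4% paternal, and 68.6 FPKM in ICM, all maternal, and Rpl5 had 660.3 FPKM in VE, 27.6% paternal, and 699.1 FPKM in ICM, 77.8% paternal. These are among the 8 genes with the largest difference in paternal share at 20 FPKM or more in both columns. Over the 2973 autosomal genes within 2-fold and at 5 FPKM or more in both, 39 in VE and 57 in ICM had a paternal share under 10% or over 90%.

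Genes listed at 0 in VE and abundant in ICM included members of the Pramel family, with Pramel6 at 177.2 FPKM, Pramel4 at 132.2 FPKM, Pramel7 at 120.9 FPKM and Pramel5 at 97.0 FPKM in ICM. The transcription factor gene Spic was listed at 0 in VE and had 108.1 FPKM in ICM, and Havcr1 was listed at 0 in VE and had 111.3 FPKM in ICM. In all, 131 genes reached 5 FPKM in VE and were listed at 0 in ICM, and 62 were listed at 0 in VE and reached 5 FPKM in ICM.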
